A study of Mus musculus with 6 samples.

Results

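The genes described here are 42 interferon response and MHC class I genes of the mouse, chosen by gene name from the 56953 genes of the count table. They fall into 2 classes that are described apart: 31 interferon-stimulated genes (4 transcription factors, 22 antiviral and regulatory genes, 5 GTPases) and 11 genes of class I antigen presentation. Of the 42, 36 had enough counts to be tested (25 interferon-stimulated and 11 antigen presentation genes), among 14738 genes tested in all. Ifit1, Ifit3, Oas3, Mx1, Mx2 and Gbp3 did not. The rule used no measured value, but the genes were chosen with earlier results of these data known.

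Interferons are secreted proteins that cells release on sensing viral nucleic acid or immune signals. Type I and III interferons act through receptor-bound kinases on transcription factors, STAT2 and IRF9 among them, that bind a DNA element called the ISRE, while the response to interferon gamma uses another element, the GAS. The targets include antiviral effectors and the machinery of class I antigen presentation: the immunoproteasome cuts proteins into peptides, the TAP transporter carries them into the endoplasmic reticulum, and class I heavy chains with beta-2 microglobulin display them at the cell surface. Most epithelial cells keep a low level of this programme without infection.

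The 6 libraries come from cultures of primary pancreatic acini, the clusters of cells that secrete digestive enzymes, taken on day 3 of an assay in which acini turn into duct-like structures (acinar-to-ductal metaplasia). All cultures were kept in Matrigel with Waymouth's medium, 10% FBS, penicillin and streptomycin, trypsin inhibitor at 0.1 mg/ml and dexamethasone, a glucocorticoid, at 10 µg/ml. WT cultures (2 libraries) came from wild-type mice labelled 10 and 11 weeks old and DD cultures (2 libraries) from Dkk3 knockout mice of 12 and 13 weeks, both without treatment. DD + rDKK3 cultures (2 libraries) came from Dkk3 knockout mice of 14 and 15 weeks and received recombinant DKK3, the secreted protein that the knockout removes. The allele is constitutive, so every cell in a DD culture carries it. The comparison of DD with WT asks how the loss of DKK3 changes the culture, and that of DD + rDKK3 with DD what the added protein changes. The labels name no animal, culture batch or strain, so the p-values measure the spread between these libraries, and age and group cannot be told apart.

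Totals ran from 12018473 to 19750401 counts per library, so 3 counts, taken here as the limit that a count of 0 allows, stood for 0.142 to 0.294 CPM (counts per 1000000 counts of the TMM-scaled library). Counting error is part of every low value below. Libraries DD 2 and DD + rDKK3 2 stood apart from the other 4 on the first principal component of all genes (scores of 42.5 and 39.7 against -36.5 to -8.72), and WT 1 on the second (53.1 against -28.0 to 6.16). Fibroblast markers moved with the first split: their summed level was 741 and 828 CPM in DD 2 and DD + rDKK3 2 and 38.4 to 147 CPM in the other 4. The markers of the labelled cell type were high in all 6 libraries, with 11 acinar markers summing to 98128 to 169545 CPM. Dkk3 itself had 1 to 11 counts in every library, WT included, so its count did not check the genotype labels. WT 2 is labelled as from a female, yet its 4 Y-linked genes summed to 141 CPM, within the 119 to 147 CPM of the 5 libraries labelled male, and it was the only library with Xist counts (16).

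Promoter sequence was read for the 32 of 42 genes that have a RefSeq window (build GRCm38.p6, 250 bases before to 50 after the annotated start). Each window was searched on both strands for an ISRE-type motif (GAAA, any 2 bases, GAAA) and a GAS-type motif, TTCNNNGAA, which reads the same on both strands. Overlapping matches were each counted. The ISRE-type motif stood in 14 of 23 interferon-stimulated genes (60.9%) and 2 of 9 antigen presentation genes (22.2%), beside 3.99% of all 27025 genes with a window and 3.44% of all 32851 windows. The GAS-type motif stood in 7 of 23 (30.4%) and 1 of 9 (11.1%), beside 9.55% of all genes and 8.3% of all windows. A match describes the letters of the window and shows no binding. Printed next are the 200 bases before the annotated start, 5′ to 3′ on the gene's strand, for 4 genes. They had an unadjusted p under 0.05 in both comparisons with WT and hold a match there. Both traits were the rule of choice, so these 4 can show no link between a motif and a fold change, which was not tested. Of the 9 genes with such a p in both, 7 have a window. Irf7, Ifi35 and Psmb9 among them, and the second Irf1 window, hold no match in this stretch. Capitals mark the matches, and positions count the start base as 0. In Isg15 (chr4:156200819-156201018, minus strand) 3 overlapping ISRE-type matches begin at -78, -72 and -66. H2-T23 (chr17:36032702-36032901, minus strand) holds 1 ISRE-type match on the other strand, at -124. Irf1 (first of 2 windows, chr11:53769814-53770013, plus strand) and Psmb8 (chr17:34197995-34198194, plus strand) hold a GAS-type match, at -90 and -97.
Isg15: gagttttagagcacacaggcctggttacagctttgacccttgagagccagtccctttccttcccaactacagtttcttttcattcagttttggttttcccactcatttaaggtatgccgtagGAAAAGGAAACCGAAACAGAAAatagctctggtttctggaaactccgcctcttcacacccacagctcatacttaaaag
H2-T23: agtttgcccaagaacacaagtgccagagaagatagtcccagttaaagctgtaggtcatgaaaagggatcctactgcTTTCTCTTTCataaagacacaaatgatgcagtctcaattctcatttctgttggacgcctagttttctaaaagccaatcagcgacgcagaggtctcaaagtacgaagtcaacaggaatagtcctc
Irf1: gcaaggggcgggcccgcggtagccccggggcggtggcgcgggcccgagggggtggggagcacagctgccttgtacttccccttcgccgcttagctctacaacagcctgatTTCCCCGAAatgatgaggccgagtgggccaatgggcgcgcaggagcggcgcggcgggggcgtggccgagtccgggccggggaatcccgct
Psmb8: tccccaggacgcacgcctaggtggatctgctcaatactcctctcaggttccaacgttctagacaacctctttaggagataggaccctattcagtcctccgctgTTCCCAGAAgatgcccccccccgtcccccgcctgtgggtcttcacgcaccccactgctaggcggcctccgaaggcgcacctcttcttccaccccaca

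Another stretch is given because it serves a pair of genes. Psmb9 and Tap1 lie head to head on chromosome 17, and their RefSeq starts are 226 bases apart on opposite strands, so the 200 bases before Psmb9 (chr17:34187331-34187530, minus strand) lie wholly between both starts. Neither motif was found in it.
Psmb9: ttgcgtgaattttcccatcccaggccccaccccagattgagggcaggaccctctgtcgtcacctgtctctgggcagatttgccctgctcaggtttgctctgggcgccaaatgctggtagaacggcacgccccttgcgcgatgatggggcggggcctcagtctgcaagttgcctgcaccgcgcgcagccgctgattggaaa

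Levels between genes are given as TPM (counts divided by exon length and scaled to the same total in each library), averaged over the 6 libraries. Antigen presentation genes were the most abundant. The classical heavy chains H2-K1 (chromosome 17, 34214991 to 34219321, minus strand, GRCm39) and H2-D1 (chromosome 17, 35481706 to 35486475, plus strand) reached 291 and 289 TPM, and their partner B2m (chromosome 2) reached 103 TPM. Tapbp, the tapasin that loads peptide, had 46.0 TPM, and the nonclassical heavy chain H2-T23 had 41.8 TPM. Nlrc5, the transactivator of class I genes, was the lowest of the class at 0.286 TPM. In all, 9 of the 11 genes lie within 2.21 megabases of chromosome 17, the MHC region. Class I genes resemble one another closely and differ between mouse strains, so the division of reads among them is uncertain.

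The interferon-stimulated genes were mostly low. Bst2 (tetherin, which holds budding virus at the membrane) at 86.8 TPM and Ifi27 at 62.0 TPM were far above the rest, and Ifi35 (13.2 TPM) and Parp9 (10.9 TPM) followed. Among the transcription factors Irf9 was highest at 9.55 TPM and Irf7, which amplifies type I interferon induction, lowest at 1.08 TPM. Among the GTPases Irgm1 had 5.55 TPM and Gbp7 0.245 TPM, and Oasl2 (0.344 TPM) was the lowest of the tested antiviral genes. Classic antiviral effectors were near the limit of counting: Mx1 had 0 to 3 counts and Mx2 0 or 1 count per library, and Ifit1 had 1 to 11 counts. Ifit, Oas and Gbp genes have close copies, and reads could have been split among them.

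**Figure D1:**
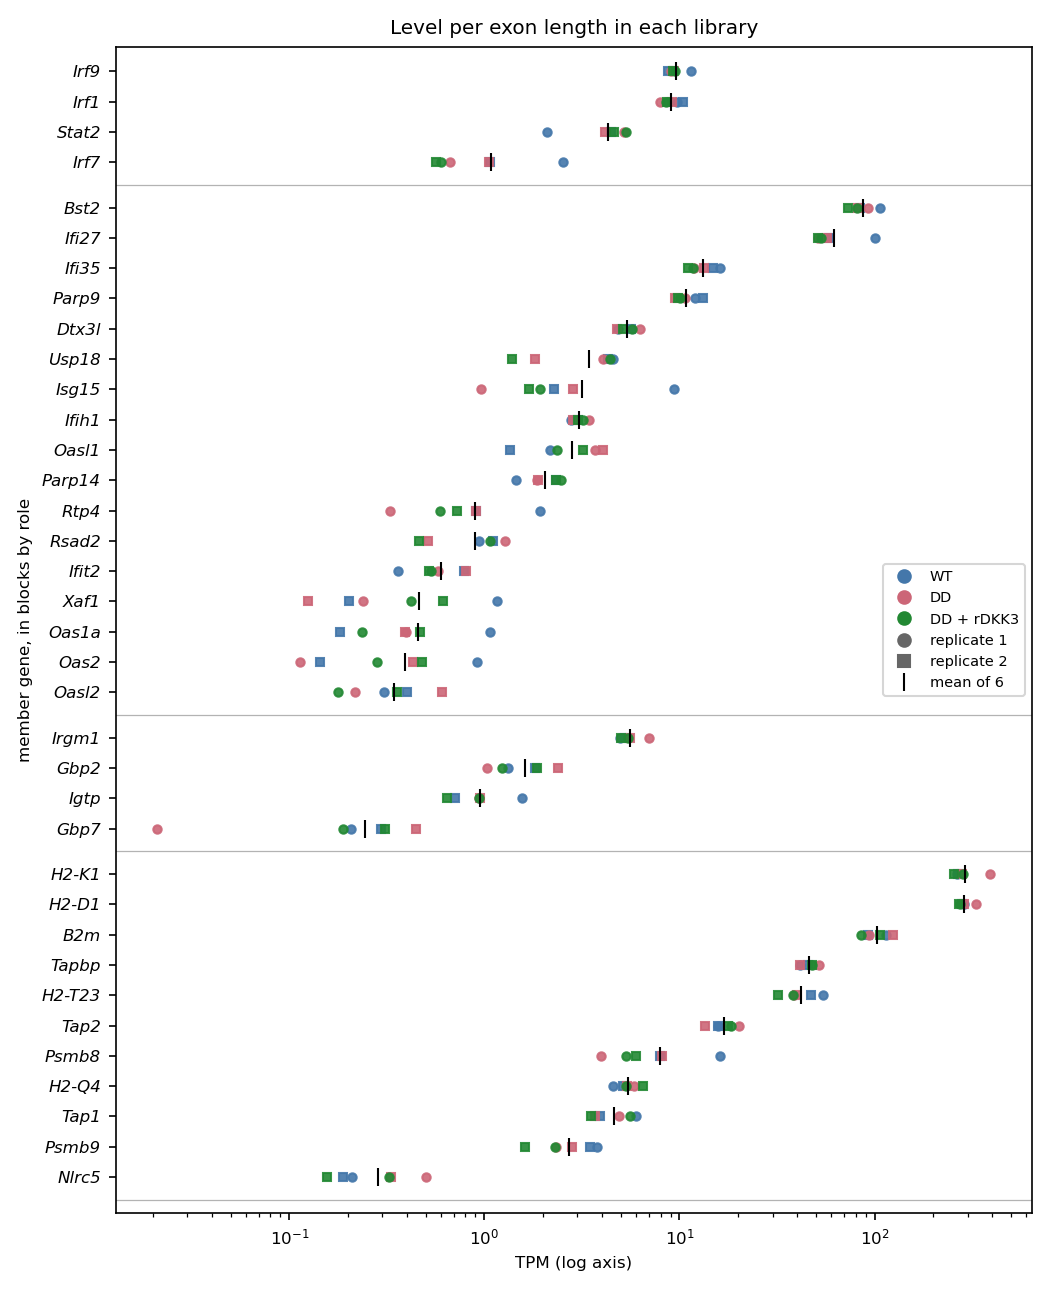
TPM on a log axis for the 36 tested genes, in blocks by role (transcription factors, antiviral and regulatory genes, GTPases, antigen presentation genes). Points are single libraries coloured by group, circles and squares are replicates 1 and 2, and black ticks the mean of 6, from 291 TPM for H2-K1 down to 0.245 TPM for Gbp7.

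In DD against WT, most of the genes were lower in DD, by amounts that did not pass the adjusted test. The log2 fold change was below 0 for 23 of 25 interferon-stimulated genes (median -0.54) and for 10 of 11 antigen presentation genes (median -0.25), against a median of 0.016 over all genes tested. None of the 36 passed an adjusted p of 0.05 in edgeR's quasi-likelihood test, where 0.0407% of all genes did (6 genes), and the smallest adjusted p among them was 0.509 (Parp9). DESeq2 and limma-voom also called 0 of them. At an unadjusted p under 0.05 there were 11, all lower in DD, namely 8 interferon-stimulated (Irf1, Irf7, Isg15, Ifi27, Ifi35, Rtp4, Xaf1, Parp9) and 3 antigen presentation genes (Psmb8, Psmb9, H2-T23), beside 8.26% of all genes in either direction and 3.99% in the lower direction. The DD libraries did not overlap the WT libraries in 20 of the 36 (18 lower, 2 higher), beside 37.8% of all genes in either direction and 19.7% in the lower direction.

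WT 1 carried much of this difference. It was the highest of the 6 libraries for 18 of 25 interferon-stimulated genes (72%) and 8 of 11 antigen presentation genes (72.7%), where it was highest for 27.9% of all genes. WT 1 lay above WT 2 in 31 of the 36. Without WT 1 the median log2 fold change of DD against WT was -0.28 for the interferon-stimulated and -0.045 for the antigen presentation genes. Over all genes it was 0.014 in that fit. Only 1 WT library is left there, so no p is given for it. The sign mostly stayed, with 22 of 27 and 8 of 11 below 0 among the genes that passed the filter in that fit, where 47.8% of all genes were below 0. Of the 36, 7 turned without WT 1 (Oas1a, Oas2, Igtp, Irgm1, B2m and H2-K1 to above 0, Stat2 to below). WT 2 alone lay above both DD libraries in 19 of the 36 (52.8%) and below both in 4 (11.1%), against 32.8% and 29.7% of all genes. Without WT 2 the medians were -0.81 and -0.41.

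**Figure D2:**
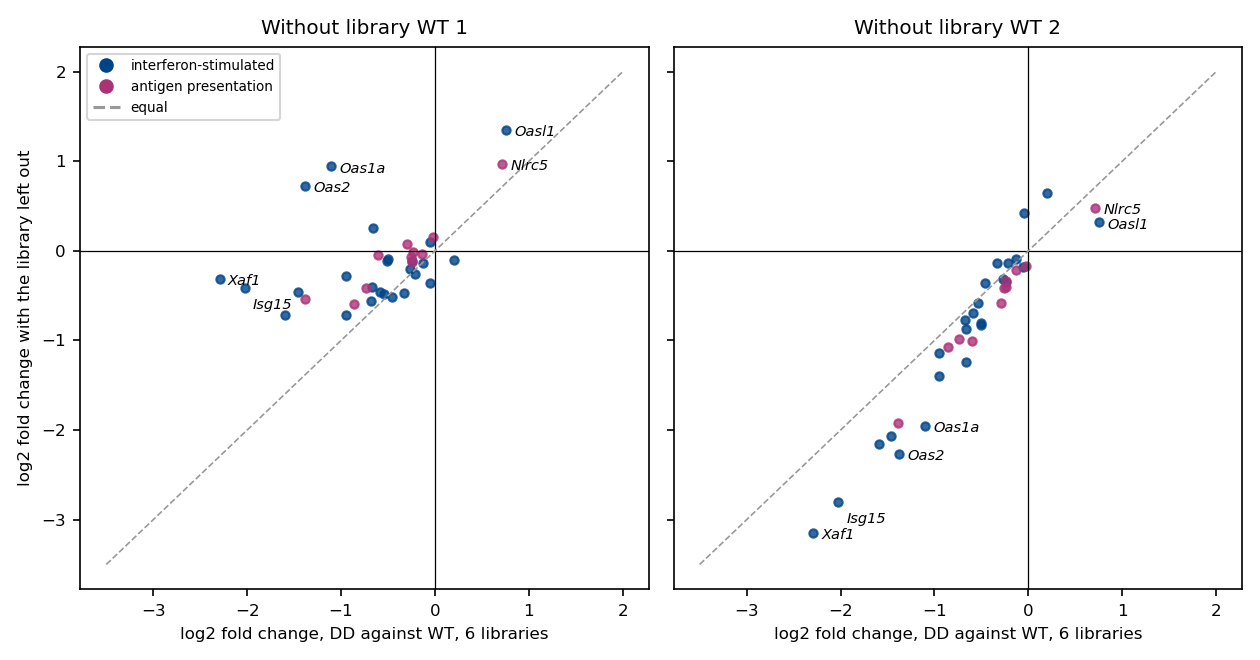
Log2 fold change of DD against WT with 6 libraries (x axis) and with library WT 1 (left) or WT 2 (right) left out (y axis), 1 point per tested gene. Without WT 1 the points lie nearer to 0 than the dashed line of equality for Isg15 (-0.41 in place of -2.03) and Xaf1 (-0.31 in place of -2.29), and Oas1a and Oas2 are among the 6 points that move from below to above 0.

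The transcription factors differed among themselves. Irf1 (chromosome 11, 53660841 to 53669200), a direct target and mediator of interferon gamma, measured 25.1 and 21.4 CPM in WT and 14.0 and 16.9 CPM in DD, with a log2 fold change of -0.59 ± 0.18 (SE, edgeR adjusted p = 0.586). Both DD libraries lay below both WT libraries, and without WT 1 the log2 fold change was -0.46. Irf7 (chromosome 7, 140842619 to 140846394) measured 5.30 and 1.75 CPM in WT and 0.946 and 1.59 CPM in DD, a log2 fold change of -1.46 ± 0.56. Here WT 1 stood alone and WT 2 was close to DD 2, and the log2 fold change without WT 1 was -0.46. Irf9, the DNA-binding part of the STAT complex, measured 36.5 and 22.1 CPM in WT and 19.7 and 21.4 CPM in DD, with a log2 fold change of -0.51 that was -0.09 without WT 1. Stat2 went the other way, at 7.26 and 12.3 CPM in WT and 12.3 and 10.3 CPM in DD, with overlapping groups and a log2 fold change of 0.20 ± 0.27, or -0.10 without WT 1.

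Among the antiviral and regulatory genes, 16 of the 17 tested were lower in DD (median log2 fold change -0.67). Parp9 (chromosome 16, 35758840 to 35792975), which works with the ubiquitin ligase Dtx3l, had the smallest p of all 36. Its level was 33.4 and 28.9 CPM in WT and 20.05 and 18.8 CPM in DD, a log2 fold change of -0.68 ± 0.16 (edgeR adjusted p = 0.509). WT 1 and WT 2 were alike here, and without WT 1 the value was -0.56. Dtx3l, which starts beside it on the opposite strand, measured 15.2 and 14.1 CPM in WT and 13.5 and 10.8 CPM in DD (log2 fold change -0.27 ± 0.20).

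Ifi27 (chromosome 12, 103400470 to 103406498), a mitochondrial and membrane protein, had 247 CPM in WT 1 against 114 CPM in WT 2, and 85.9 and 101 CPM in DD. Its log2 fold change was -0.95 ± 0.32 with WT 1 and -0.28 without it. Ifi35 (chromosome 11, 101339233 to 101349524), a partner of Nmi, measured 34.2 and 24.8 CPM in WT and 16.9 and 20.2 CPM in DD, a log2 fold change of -0.67 ± 0.20, or -0.41 without WT 1. For both genes the groups did not overlap. Bst2 measured 71.7 and 44.6 CPM in WT and 42.2 and 39.5 CPM in DD (log2 fold change -0.51 ± 0.23), with WT 2 only just above DD 1, and without WT 1 its value was -0.11.

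Isg15 (chromosome 4, 156283912 to 156285253), a ubiquitin-like protein that is conjugated to other proteins, was seen 41 times in WT 1 and 11 times in WT 2, and 6 and 15 times in DD 1 and DD 2. As CPM these are 4.02, 0.772, 0.284 and 0.881, so WT 2 lay between the DD libraries and the groups overlapped. The log2 fold change was -2.03 ± 0.83 over all libraries and -0.41 without WT 1. Xaf1, a pro-apoptotic factor, had the same shape with 31, 6, 9 and 4 counts (3.04, 0.421, 0.425 and 0.235 CPM) and a log2 fold change of -2.29 ± 0.89, or -0.31 without WT 1. Rtp4, a chaperone of membrane receptors, measured 4.51, 1.68, 0.52 and 1.53 CPM in the same order, a log2 fold change of -1.59 ± 0.63, or -0.72 without WT 1.

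The Oas and Oasl genes did not share 1 direction. Oas1a, a synthase that activates RNase L, measured 4.71 CPM in WT 1, 0.632 CPM in WT 2 and 1.18 and 1.23 CPM in DD. Its log2 fold change was -1.10 ± 0.80 and turned to 0.94 without WT 1, and that of Oas2 turned from -1.38 to 0.73. Oasl1, which limits translation of Irf7, was one of 3 tested genes with a value above 0, at 3.14 and 1.54 CPM in WT and 3.64 and 4.17 CPM in DD (log2 fold change 0.76 ± 0.39). Both DD libraries lay above both WT libraries, and the value was 1.35 without WT 1 and 0.32 without WT 2. Isg15, Xaf1, Rtp4, Oas1a and Irf7 were the 5 genes with the widest range over the 6 libraries among those averaging at least 1 CPM, from 14.2-fold for Isg15 to 6.16-fold for Irf7.

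Usp18, which removes ISG15 from proteins, measured 8.15 and 6.10 CPM in WT and 4.96 and 2.35 CPM in DD. Its log2 fold change was -0.95 ± 0.56 (edgeR adjusted p = 0.595), and -0.72 without WT 1, and the groups did not overlap although DD 1 and DD 2 differed widely. Rsad2 (viperin), an antiviral enzyme, had a log2 fold change of -0.54 ± 0.55, also without overlap. The RNA sensor Ifih1 (MDA5) measured 13.8 and 11.9 CPM in WT and 11.6 and 10.1 CPM in DD (log2 fold change -0.24 ± 0.19), while Ifit2, which blocks translation of viral RNA, ran from 1.18 to 2.03 CPM and Oasl2 from 0.475 to 1.53 CPM over the 6 libraries. Of the genes under the count filter, Ifit1 had 7 and 11 counts in WT and 3 and 7 counts in DD, and Ifit3 had 7 and 4 against 2 and 4. In the same model without the filter their log2 fold changes were -1.37 ± 0.75 and -1.45 ± 0.96 (edgeR adjusted p = 0.622 and 0.798). Oas3 had 9 and 1 counts in WT and 6 and 6 in DD, and the groups overlapped. Mx1 and Mx2 were at or under 3 counts in all libraries, so no fold is given.

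The GTPases, which act on vacuoles that hold pathogens, held no gene with an unadjusted p under 0.05 (median log2 fold change -0.34, 4 of 4 below 0). Igtp had 3.93 CPM in WT 1, 1.40 CPM in WT 2 and 1.61 and 1.70 CPM in DD. Irgm1, the most abundant, measured 17.5 and 14.5 CPM in WT and 16.7 and 14.0 CPM in DD. Gbp7 had 7 and 11 counts in WT and 1 and 18 counts in DD, so its value moved most between replicates. Gbp2 ran from 0.993 to 2.41 CPM, and Gbp3, under the count filter, had 5 and 6 counts in WT and 3 and 12 in DD.

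**Figure D3:**
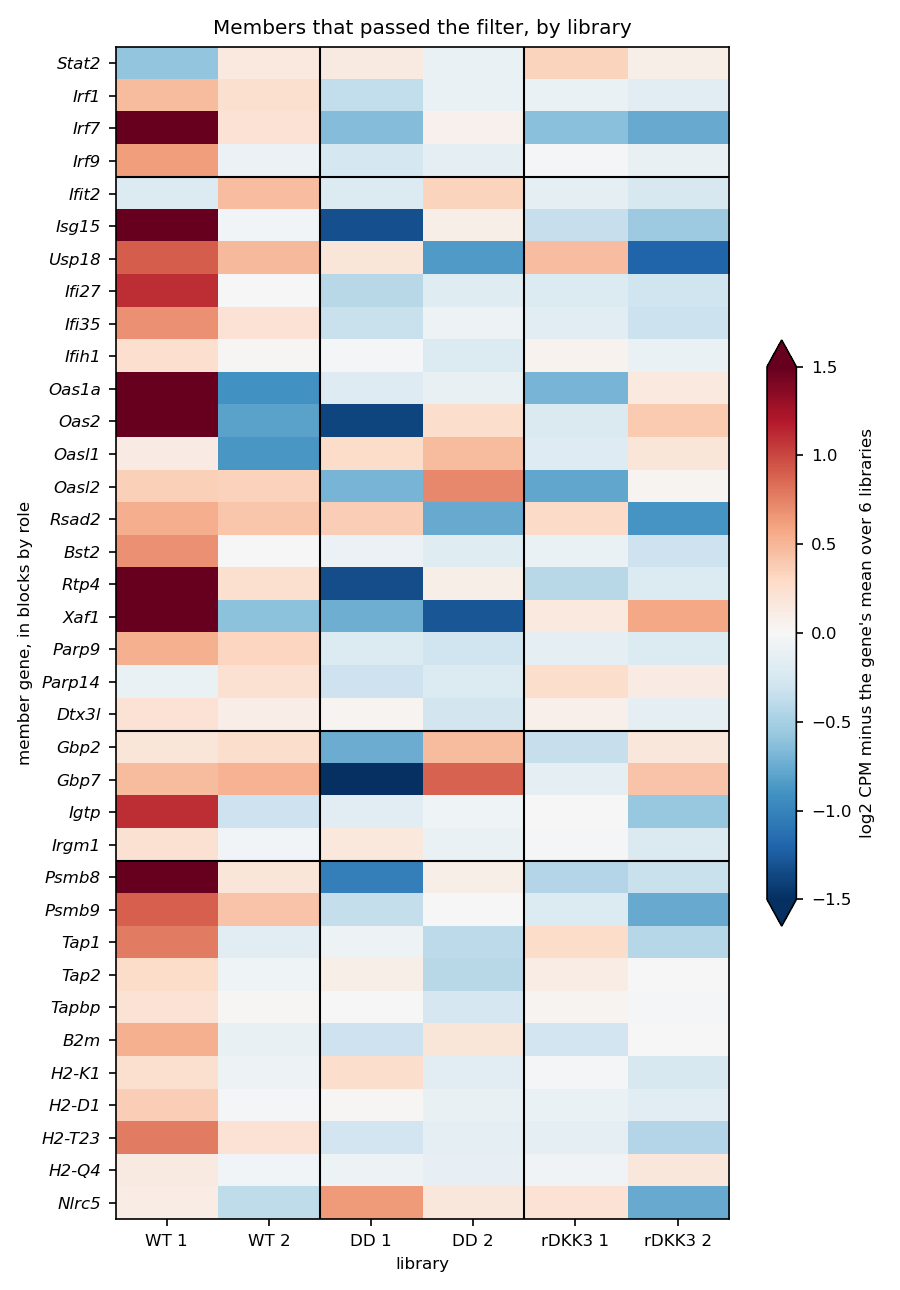
Log2 CPM of the 36 tested genes in each library, minus the gene's own mean over 6 libraries, with genes in blocks by role and colours capped at 1.5 on either side. Column WT 1 is the darkest red, being the highest library for 26 of the 36, where it was the highest for 27.9% of all genes tested.

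The lowest log2 fold changes among the antigen presentation genes were those of the immunoproteasome subunits Psmb8 and Psmb9 and of the heavy chain H2-T23, and differences between genes were not tested. Psmb8 (chromosome 17, 34416695 to 34420428) measured 30.3 and 11.8 CPM in WT and 5.06 and 11.0 CPM in DD, a log2 fold change of -1.39 ± 0.48 (edgeR adjusted p = 0.586), with WT 2 just above DD 2. Psmb9 (chromosome 17, 34400961 to 34406738) measured 7.95 and 5.75 CPM in WT and 3.31 and 4.23 CPM in DD, a log2 fold change of -0.86 ± 0.31. Without WT 1 the values were -0.54 and -0.60. The peptide transporter varied within groups: Tap1, the neighbour of Psmb9, had 19.9 CPM in WT 1 but 10.3 CPM in WT 2 and 11.0 and 8.75 CPM in DD. Its log2 fold change was -0.60 ± 0.36 and -0.045 without WT 1. Tap2 and Tapbp had log2 fold changes of -0.25 ± 0.21 and -0.24 ± 0.16, or -0.06 and -0.13 without WT 1.

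Of the heavy chains, H2-T23 (chromosome 17, 36340665 to 36343747), which presents signal peptides to natural killer cell receptors, measured 103 and 70.4 CPM in WT and 49.5 and 54.6 CPM in DD. This is a log2 fold change of -0.74 ± 0.21, and -0.42 without WT 1, and all WT values lay above all DD values. H2-K1 measured 464 and 373 CPM in WT and 469 and 352 CPM in DD, with overlapping groups, and its log2 fold change of -0.03 had a 95% interval from -0.52 to 0.47. H2-D1 measured 476 and 365 CPM in WT and 373 and 342 CPM in DD (log2 fold change -0.23, interval -0.67 to 0.20), and B2m 133 and 85.0 against 73.8 and 104 CPM (-0.29, interval -0.90 to 0.31). A change of either of the classical chains by a log2 value of 1 lies outside these intervals. Without WT 1 the values of H2-K1, H2-D1 and B2m were 0.16, -0.01 and 0.08. Nlrc5 was the only gene of the class above 0, with 10 and 10 counts in WT and 34 and 19 counts in DD (log2 fold change 0.71 ± 0.53). H2-Q4 measured 7.46 to 9.19 CPM in all 6 libraries.

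No shift of either class was seen with added rDKK3. In DD + rDKK3 against DD, 18 of the 36 genes were above 0 and 18 below, with a median log2 fold change of 0.044 for the interferon-stimulated and -0.062 for the antigen presentation genes, against -0.003 over all genes. No gene passed an adjusted p of 0.05 in edgeR, neither among these (0 at an unadjusted p under 0.05, and 0 called by DESeq2 or limma-voom) nor among all 14738 (0% of all genes, with 1.98% at an unadjusted p under 0.05). The groups did not overlap for 5 of the 36, with Irf9, Xaf1, Parp14 and H2-Q4 higher and Oasl1 lower, beside 29.5% of all genes. The precision differs widely among the genes. The 95% interval of the log2 fold change lay wholly between -1 and 1 for 18 of the 36 (11 of 25 and 7 of 11), and for the others a change by 1 cannot be told from none.

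Parp14, an ADP-ribosyltransferase, had the smallest p of this comparison (unadjusted 0.063, edgeR adjusted p = 1.00). It measured 6.71 and 7.16 CPM in DD and 9.97 and 9.03 CPM in DD + rDKK3, a log2 fold change of 0.45 ± 0.21, and WT lay in between at 7.66 and 9.75 CPM. Xaf1 had the largest value, with 9 and 4 counts in DD and 16 and 22 counts in DD + rDKK3 (log2 fold change 1.57, interval -0.48 to 3.63). For the 9 genes with an unadjusted p under 0.05 in both comparisons with WT, the choice itself places both Dkk3-null groups on 1 side of the same WT libraries, so their values are a description. Irf1 measured 16.9 and 16.2 CPM in DD + rDKK3 (log2 fold change against DD 0.10, interval -0.31 to 0.51), Parp9 21.2 and 20.04 CPM (0.08, interval -0.28 to 0.44) and H2-T23 55.1 and 44.5 CPM (-0.06, interval -0.56 to 0.43). Psmb8 at 7.65 and 8.22 CPM and Isg15 at 0.633 and 0.537 CPM lay inside the DD range, with wide intervals of -1.14 to 1.11 and -1.98 to 2.06. Irf7 and Psmb9 were further from DD, with log2 fold changes of -0.47 (interval -1.83 to 0.89) and -0.29 (interval -1.02 to 0.45). Ifi27 and Ifi35 had 0.04 (interval -0.71 to 0.79) and -0.05 (interval -0.52 to 0.42).

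In DD + rDKK3 against WT, which shares its WT libraries with the first comparison, 31 of the 36 genes were below 0 (median -0.59 for the interferon-stimulated, -0.32 for the antigen presentation genes, 0.017 over all genes). Again none passed an adjusted p of 0.05 in edgeR, DESeq2 or limma-voom, where edgeR called 0.0475% of all genes. At an unadjusted p under 0.05 there were 10, all lower: Irf1, Irf7, Isg15, Ifi27, Ifi35, Bst2 and Parp9 in one class, Psmb8, Psmb9 and H2-T23 in the other. The background was 15.3% of all genes in either direction and 8.01% in the lower direction. Groups did not overlap for 16, all lower, beside 55% of all genes in either direction and 27.1% in the lower direction. Irf7 had 0.950 and 0.860 CPM in DD + rDKK3 (log2 fold change against WT -1.93 ± 0.58), Psmb9 3.69 and 2.47 CPM (-1.15 ± 0.32) and Bst2 41.6 and 36.0 CPM (-0.58 ± 0.23). Without WT 1 the medians were -0.30 and -0.012. Parp9, Psmb9 and H2-T23 then had log2 fold changes of -0.47, -0.88 and -0.48, and Oasl1 had 0.97. In that fit 9 of the 36 turned, among them Xaf1 (from -0.72 to 1.27).

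**Figure D4:**
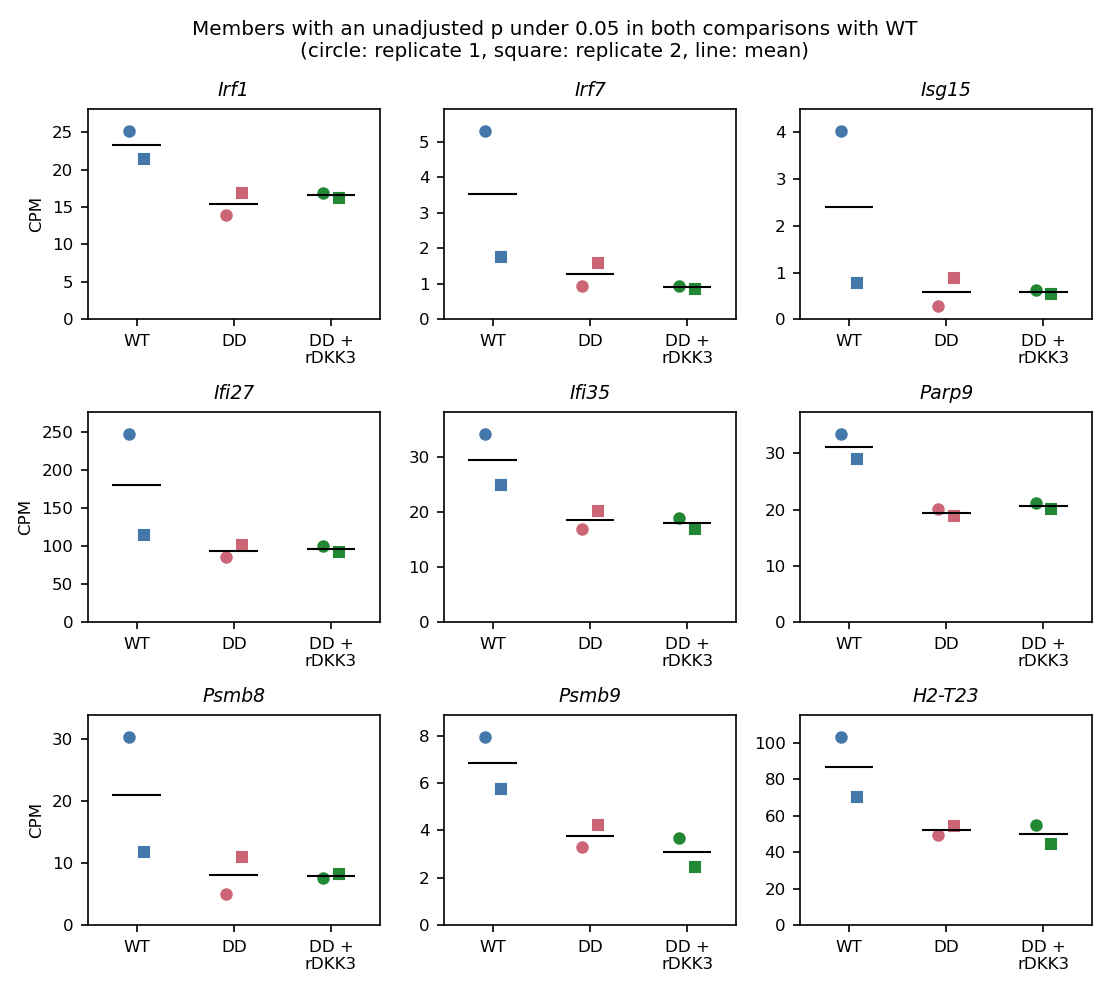
CPM per library for the 9 genes with an unadjusted p under 0.05 in both comparisons with WT, with circles for replicate 1, squares for replicate 2 and lines for the mean of 2. In all but Isg15 both WT libraries lie above the other 4. WT 2 sits close to the DD and DD + rDKK3 values in Isg15, Irf7, Ifi27 and Psmb8.

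**Figure D5:**
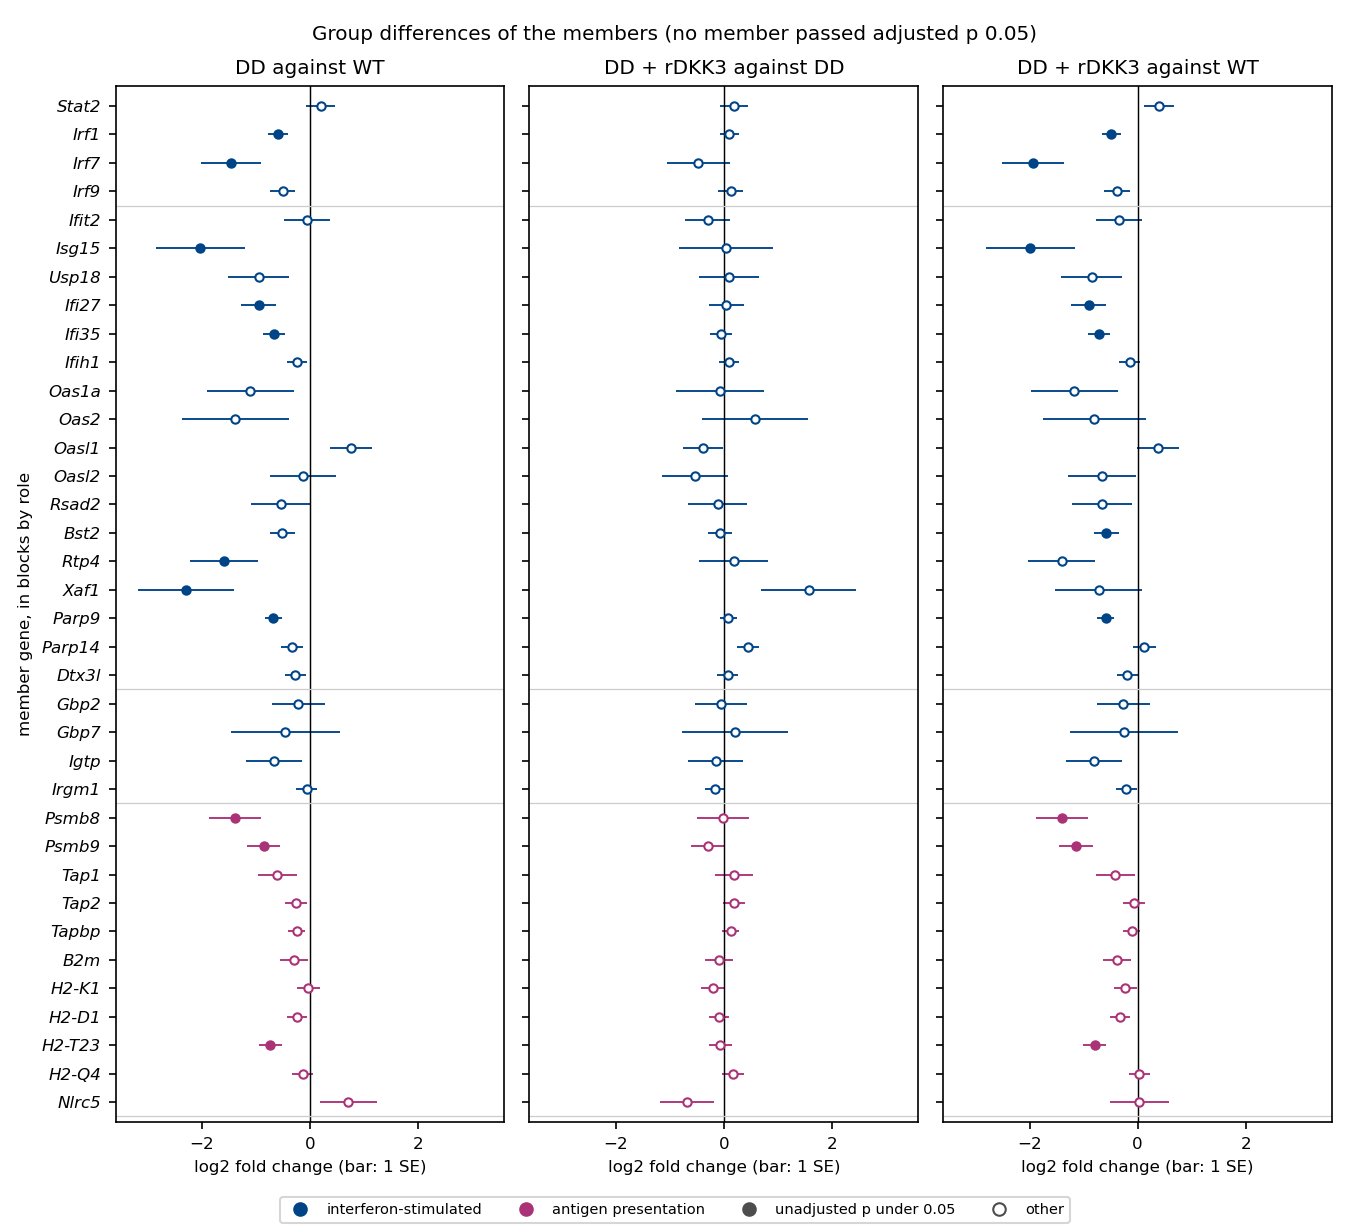
Log2 fold change with 1 SE of the 36 tested genes in the 3 comparisons, filled where the unadjusted p was under 0.05. The left and right panels share the WT libraries and lean below 0 (33 and 31 of 36), and the middle panel is centred on 0 (18 of 36 below).

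The replicates of DD and DD + rDKK3 differed in some of the genes along the split by fibroblast markers. Usp18 measured 4.96 and 6.01 CPM in DD 1 and DD + rDKK3 1 but 2.35 and 1.83 CPM in DD 2 and DD + rDKK3 2. Rsad2 followed it at 2.08 and 1.95 against 0.881 and 0.806 CPM. These were the only 2 of the 36 lower by over 1 on the log2 scale in both libraries numbered 2, and none was higher by that much, where 21 of all genes were lower and 601 higher. Over all 36, the difference had the same sign in both groups for 63.9%, and for 59.7% of all genes. The part of the fibroblasts in these differences was not tested. DD 1 and DD + rDKK3 1 open with the same name in their titles, as do DD 2 and DD + rDKK3 2, while their labelled ages differ, and the labels do not say whether they came from the same mouse.

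Other genes of the pathway were read from lists by role. All 19 interferon ligand genes found in the table (of 20 names) had 0 counts in all 6 libraries, which allows up to 3 counts in each, so no ligand mRNA was detectable at this depth. Of the receptors 5 were tested and of the kinases and STATs another 5, with none at an unadjusted p under 0.05 in DD against WT. Among the sensors and adaptors 1 of 11 had such a p, the RNA editor Adar (0.37 ± 0.15, higher in DD), and among the feedback genes 1 of 5, the phosphatase Ptpn2 (-0.42 ± 0.16). As above, 8.26% of all genes had such a p in either direction and 3.99% in the lower direction. Of 33 further interferon-stimulated genes tested, 5 were lower in DD at that level and none higher (Cmpk2, Ifitm2, Ifitm3, Uba7, Nmi, median of the list -0.24). Of 14 further class I pathway genes, 6 were lower and none higher (median -0.34). They include the remaining immunoproteasome subunit Psmb10 (-0.54 ± 0.17), the proteasome activator subunits Psme1 (-0.40 ± 0.17) and Psme2 (-0.76 ± 0.23), and the heavy chains H2-Q7, H2-T22 and Mr1. Part of this depended on WT 1. Without it the DD against WT median was -0.23 for the 14 class I pathway genes and 0.042 for 34 further interferon-stimulated genes. In that fit it was 0.097 for 13 sensors and adaptors and 0.17 for 6 feedback genes, beside 0.014 over all genes. No gene of these lists passed an adjusted p of 0.05 in any comparison.

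Immune cells express many of these genes, and 2 lists of immune markers were also highest in WT 1. The 9 markers of dendritic cells and class II summed to 26.5 CPM in WT 1, 9.75 CPM in WT 2 and 5.10 to 9.51 CPM in the other 4 libraries, and 1 class II gene, H2-Ab1, gave 19.8 of the 26.5 CPM. The class II genes H2-Aa and H2-Eb1 were also higher in WT 1 (17 and 14 counts) than in WT 2 (1 and 4 counts). Cd74, the class II chaperone, was not higher in WT 1 than in WT 2 (3.53 and 3.58 CPM). The dendritic cell markers Itgax, Flt3, Xcr1 and Siglech were at 0 in WT 1, and Flt3 and Siglech in all libraries. The 8 macrophage markers summed to 80.8 and 37.2 CPM in WT, 51.4 and 107 CPM in DD and 58.1 and 99.7 CPM in DD + rDKK3. Their sum was thus higher in WT 1 than in WT 2 and highest in DD 2. C1qa had 19.5 CPM in WT 1 and 1.61 CPM in WT 2, while Cd68 had 33.3 and 29.5 CPM. Also higher in WT 1 than in WT 2 were C1qb (13.6 and 1.05 CPM), Mrc1 (5.99 and 0.421 CPM) and Adgre1 (2.36 and 0.702 CPM). The same held for Fcgr1 (1.57 and 0 CPM) and Ptprc (1.08 and 0.211 CPM). Csf1r went the other way, at 3.34 and 3.72 CPM. The 9 lymphocyte markers summed to 0.883 CPM in WT 1 and to 0 to 0.322 CPM in the others, with 4 of them at 0 in all libraries. The sum in WT 1 was 6 counts of Cd4, 2 of Cd79a and 1 of Cd8a. Of the 9, 0 passed the count filter, so this list is near the limit of counting. Acinar markers were highest in WT 1 as well in sum (169545 CPM, against 130215 CPM in WT 2), which a few digestive enzyme genes carried. The acinar transcription factor Bhlha15 was lowest in WT 1, at 19.5 CPM against 58.3 to 80.6 CPM. Ptf1a was lowest there as well, at 119 CPM against 209 to 285 CPM. The factor Rbpjl was not, at 23.2 CPM in WT 1 and 21.7 CPM in DD 2. Cpa1 was not highest in WT 1. In bulk RNA fewer cells of a type and less RNA per cell cannot be told apart, and the part of any of these cells in the difference between WT 1 and the rest was not tested.

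Short genes had lower log2 fold changes than long ones across the table. The median log2 fold change of DD against WT was -0.15 in the 20% of genes with the shortest exons in sum and 0.16 in the 20% with the longest. The genes described here had a median exon length of 4464 bases, against 5759 bases over all genes tested, and the part of length in their values was not tested.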

How the data were processed

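The authors deposited raw counts per gene and library, in whole read pairs, with no normalization. Per their methods, strand-specific paired-end libraries were aligned with STAR 2.7.9a to GRCm39 with the basic GENCODE annotation, and exon overlaps were counted in union mode without secondary alignments and summed per gene. Union mode drops reads that overlap several features at 1 place. Reads that align equally well to near-identical copies are counted at their primary alignment only. DESeq2 1.38.0 is named in the submitters' processing notes. Replicates were not pooled, and each sample's group was taken from its title.

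From the deposited counts, 92 spike-in rows were left out, and genes were kept by edgeR's filterByExpr (minimum count 10, minimum total 15). Counts were TMM scaled and fitted with edgeR 4.0.16 (R 4.3.3) by the quasi-likelihood method over all 6 libraries and 3 groups, with 3 residual degrees of freedom and Benjamini-Hochberg adjustment over the 14738 genes kept. Calls needed an adjusted p below 0.05. SE is the absolute log2 fold change over the square root of F, and 95% intervals use the t quantile of the fit. Log2 CPM used a prior count of 2, and TPM used exon lengths of a later GENCODE release on GRCm39. The code was tested on simulated data. All 42 genes were accounted for. Values in WT and DD were given, as CPM, counts or a range, for genes with an unadjusted p under 0.05. They were also given for the highest and lowest level and the smallest p of each role, and for the 5 widest ranges. Values of single DD + rDKK3 libraries were given for only some of these genes. The 42 genes and the lists were chosen with earlier results of these data known. Alternatives were RLE size factors, library size alone, other filters, limma-voom 3.58.1, DESeq2 1.42.0, libraries left out and a replicate block. Promoters are RefSeq windows on GRCm38.p6, apart from the GRCm39 gene positions.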

Additional observations from a re-analysis of the deposited data

How the results depend on the processing

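Fold changes of the genes with an unadjusted p under 0.05 gave 309 values under the alternatives. Of these, 297 kept their direction and side of the threshold, 12 passed it with no low-count filter and 0 turned. The genes were chosen by their p in the reported fit, which favours a kept sign, and none was called there. These counts are therefore a description and no test of stability. Of all 36 genes, 7 turned in DD against WT without WT 1 (Stat2, Oas1a at 0.94, Oas2 at 0.73, Igtp at 0.25, Irgm1, B2m and H2-K1) and 1 without WT 2 (Ifit2), and 9 and 4 turned in DD + rDKK3 against WT, none with such a p in the comparison where it turned. Each group has 2 libraries, and low genes such as Isg15 rest on 6 to 41 counts a library.

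The count of these genes called in edgeR stayed at 0 under every alternative but one. With no low-count filter, 6 were called in DD against WT (Isg15, Xaf1, Ifi27, Rtp4, Psmb8, H2-T23) and 6 in DD + rDKK3 against WT (Isg15, Irf7, Ifi27, Psmb9, Psmb8, H2-T23), all lower. That fit tested 26506 genes and called 528 of all genes in DD against WT, 73 between the Dkk3-null groups and 788 in DD + rDKK3 against WT. DESeq2 called 78, 11 and 58 in that order, and the reported fit 6, 0 and 7. The cause was not tested.

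The 11 genes with an unadjusted p under 0.05 in DD against WT became 7 with library size alone, 18 with no filter, 7 with at least 1 CPM in every library and 4 without both Dkk3-null libraries numbered 1, and ranged from 2 (without WT 1 or without DD 1) to 18 (without WT 2) with 1 library left out. For DD + rDKK3 against DD the 0 became 1 with no filter, 1 without both libraries numbered 2, and 0 to 2 with 1 left out. For DD + rDKK3 against WT the 10 became 3 without both numbered 2, and 2 (without DD + rDKK3 2) to 19 (without WT 2), with 6 without DD + rDKK3 1.

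With library size alone the log2 fold change over all genes had a median of 0.22 for DD against WT and 0.18 for DD + rDKK3 against WT. The median of the interferon-stimulated genes in DD against WT was then -0.33 and that of the antigen presentation genes -0.035. With 1 library left out, they ranged from -0.81 to -0.28 and from -0.41 to -0.045. In DD + rDKK3 against DD the first was -0.15 without both Dkk3-null libraries numbered 1, and -0.14 (without DD 1) to 0.087. In DD + rDKK3 against WT it was -0.37 with at least 1 CPM in every library and -0.70 to -0.30 with 1 left out, and the antigen presentation median was -0.12 without both numbered 2 and -0.50 to -0.012.

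The labels do not say whether same-numbered libraries share an animal, although those of DD and DD + rDKK3 share the start of their titles. Their deviations over all genes correlated at 0.65 between DD and DD + rDKK3 and at -0.41 and -0.27 with WT. A replicate block gave interferon-stimulated medians of -0.59 in DD against WT and -0.56 in DD + rDKK3 against WT and no call. A block over the Dkk3-null libraries alone gave 2 unadjusted p under 0.05 between them. The share of all genes in that fit was not counted, so these 2 cannot be set against a background.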
